A study of Mus musculus with 35 samples.

Results

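Paneth cells are the antimicrobial secretory cells of the small-intestinal crypt base. Their wells were sought in single-cell transcript counts of mouse intestinal organoids and of cells sorted straight from mouse crypts. A well of 1 sorted cell was taken as a Paneth well when Lyz1, Defa24 and AY761184 together made up at least 5% of its counts and the granins Chga and Chgb made up less than 0.5%. Of 1209 wells with at least 1500 counts, 105 met this rule, 75 from organoids and 30 from crypts, and 1104 did not. The wells were selected on the measured values of these 5 genes, whose levels are therefore given as a description and without a test. Every Paneth well had counts of Defa24, 104 of 105 had counts of Lyz1 and 101 had counts of AY761184. Of the other genes that mark Paneth cells, Itln1 was counted in all 105 wells, Mmp7 in 100, Mptx1 in 88 and Gm14851 in 79. Counted means at least 1 count, and some wells held little of a marker. Per Paneth well, Defa24 made up 2.78% to 23.9% of counts, Lyz1 0% to 21.1%, AY761184 0% to 16.4% and Itln1 0.0102% to 9.32%.

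Paneth cells sit between the stem cells of the crypt and fill large apical granules with lysozyme, alpha-defensins and other antimicrobial proteins, which they release into the lumen. They also feed their stem cell neighbours with signals such as Wnt3, EGF and Notch ligands, and they arise from the secretory progenitors that also give goblet and enteroendocrine cells. Goblet cells make the mucus layer and carry mucins, trefoil factor and the granule proteins of mucus, and cells with both Paneth and goblet granule contents have been described as intermediate cells. Mouse alpha-defensins (cryptdins) are made as precursors which the protease matrilysin, Mmp7, cuts into active peptides.

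All mice were C57BL/6. Organoids, crypt-derived epithelial structures in Matrigel with EGF, R-spondin 1 and Noggin, came from 1 mouse of each genotype, and 2 passages of a culture served as its replicates. Whole organoids were wild-type and their cells were taken without a reporter sort (2 replicates). Reg4-positive cells were sorted from organoids with a dsRed reporter knocked into Reg4 (2 replicates). Lgr5-positive cells were sorted from Lgr5-GFP-DTR organoids, which carry GFP and the diphtheria toxin receptor at Lgr5, the receptor of crypt base stem cells (1 replicate). The ex vivo cells were EGFP-positive cells of Lgr5-EGFP mice (2 plates) and YFP-positive cells of Lgr5-YFP mice, in which Lgr5-Cre had switched on a Rosa26 YFP reporter 5 days earlier, so that YFP marks Lgr5 cells and their descendants (5 plates). The labels do not say whether plates came from different animals, and organoid culture, mouse, reporter and sort cannot be told apart. In tests of organoid against ex vivo, the replicates of a source also differ in genotype and sort. Their p-values measure a spread that mixes these with passages or plates. None can be taken as a measure of the spread between animals.

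The alpha-defensins form a gene family in which some members are close relatives. The coding sequences of 4 of them are shown because much of what follows is their changing balance. They were read from GENCODE M21 on GRCm38, 5′ to 3′, and capitals mark bases that differ from Defa24 or have no counterpart in it. Defa24 and Defa17 are shown whole, and of AY761184 and Gm14851, of 351 bases each, the last 300 are shown, from base 52 to the stop codon. Defa24 lies at chr8:21734494-21735471 on the plus strand, Defa17 at chr8:21655780-21656735 on the plus strand, AY761184 at chr8:21702519-21703645 on the minus strand and Gm14851 (Defa38 in RefSeq) at chr8:21095074-21096050 on the minus strand.
Defa24: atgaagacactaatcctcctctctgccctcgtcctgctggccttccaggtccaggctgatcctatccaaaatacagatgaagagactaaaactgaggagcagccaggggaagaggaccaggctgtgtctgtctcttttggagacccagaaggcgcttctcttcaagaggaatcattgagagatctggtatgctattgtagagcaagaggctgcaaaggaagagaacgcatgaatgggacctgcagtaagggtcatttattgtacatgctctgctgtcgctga
Defa17: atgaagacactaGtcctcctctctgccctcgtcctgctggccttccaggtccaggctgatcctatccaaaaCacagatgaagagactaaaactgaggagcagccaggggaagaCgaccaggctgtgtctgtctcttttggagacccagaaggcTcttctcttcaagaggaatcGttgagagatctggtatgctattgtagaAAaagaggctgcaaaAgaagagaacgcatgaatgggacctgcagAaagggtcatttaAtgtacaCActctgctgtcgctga
AY761184: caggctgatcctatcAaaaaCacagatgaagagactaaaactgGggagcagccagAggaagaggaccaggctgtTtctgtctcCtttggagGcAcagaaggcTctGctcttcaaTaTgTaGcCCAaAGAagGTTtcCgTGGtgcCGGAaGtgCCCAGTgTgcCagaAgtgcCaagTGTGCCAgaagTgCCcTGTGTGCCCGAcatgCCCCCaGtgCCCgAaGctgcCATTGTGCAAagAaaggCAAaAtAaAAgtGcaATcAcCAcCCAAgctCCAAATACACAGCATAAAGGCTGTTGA
Gm14851: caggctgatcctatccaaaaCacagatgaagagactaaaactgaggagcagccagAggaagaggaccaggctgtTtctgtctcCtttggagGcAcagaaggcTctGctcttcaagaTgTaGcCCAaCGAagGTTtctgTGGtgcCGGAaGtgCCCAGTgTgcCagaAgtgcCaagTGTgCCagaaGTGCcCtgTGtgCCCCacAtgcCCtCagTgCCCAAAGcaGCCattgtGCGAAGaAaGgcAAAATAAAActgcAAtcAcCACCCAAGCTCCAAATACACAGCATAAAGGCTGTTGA

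Defa17 was identical to Defa24 at 270 of 282 aligned bases (95.7%), while AY761184 and Gm14851 matched it at 77.6% and 78.6%. AY761184 and Gm14851 were identical to each other at 340 of 351 bases (96.9%). Of all 50-base windows of the transcripts, 28.1% in Defa24, 33.5% in AY761184 and 55.6% in Gm14851 also occurred in another gene, against 92.0% in Defa17 and 100% in Defa20. Counts of single defensins are therefore uncertain where reads could be assigned to a near-identical copy, as for Defa17, Defa20 and Defa5 (99.7%). Gm15284, named Defa30 in RefSeq and in the annotation, shared 52.4%. Lyz1 shared 16.1% of its windows with Lyz2 and Mptx1 shared 17.9% with Mptx2, whereas Itln1 shared 0.972% and Mmp7 shared 0%.

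Paneth wells made up very different parts of the sorts. In whole organoids the rule found 0 of 276 wells in replicate 1 (a count of 0 allows up to 1.09%). In replicate 2 it found 4 of 209 (1.91%, 95% exact Clopper-Pearson interval 0.524% to 4.83%). Among Reg4-positive organoid cells it found 48 of 75 (64.0%, 52.1% to 74.8%) and 19 of 81 (23.5%, 14.8% to 34.2%), and among Lgr5-positive organoid cells 4 of 74 (5.41%, 1.49% to 13.3%). Lgr5-EGFP plates 1 and 2 held 2 of 75 (2.67%) and 5 of 84 (5.95%). YFP plates 1 to 5 held 1 of 80 (1.25%), 8 of 78 (10.3%), 9 of 74 (12.2%), 2 of 35 (5.71%) and 3 of 68 (4.41%). Intervals and limits cover counting error only. The share of Reg4-positive replicate 1 moved most in wells when the threshold changed, to 29 of 75 (38.7%) at 10% and 57 of 75 (76.0%) at 2%. At 2% YFP plates 1 and 5 held 2.50% and 8.82% and whole organoid replicate 1 held 1 of 276 wells, and at 10% Lgr5-EGFP plate 1 held 1.33%.

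The Reg4-positive shares, 43.7% ± 28.7 (SD, n = 2), lay above the whole organoid shares, 0.957% ± 1.35 (SD, n = 2), with no overlap, but 2 replicates against 2 cannot give a p below 0.333 (two-sided exact permutation test, p = 0.333). The YFP and Lgr5-EGFP shares overlapped, at 6.76% ± 4.43 (SD, n = 5) and 4.31% ± 2.32 (SD, n = 2), and their difference of 2.45 percentage points was within the spread of the plates (two-sided exact permutation test, p = 0.667). Reg4 itself, a secreted lectin of secretory cells, was counted in 97 of the 105 Paneth wells, with a median of 0.123% of counts. The dsRed reporter was counted in 22 of 48 Paneth wells (45.8%) and 9 of 27 other wells (33.3%) of Reg4-positive replicate 1.

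**Figure D1:**
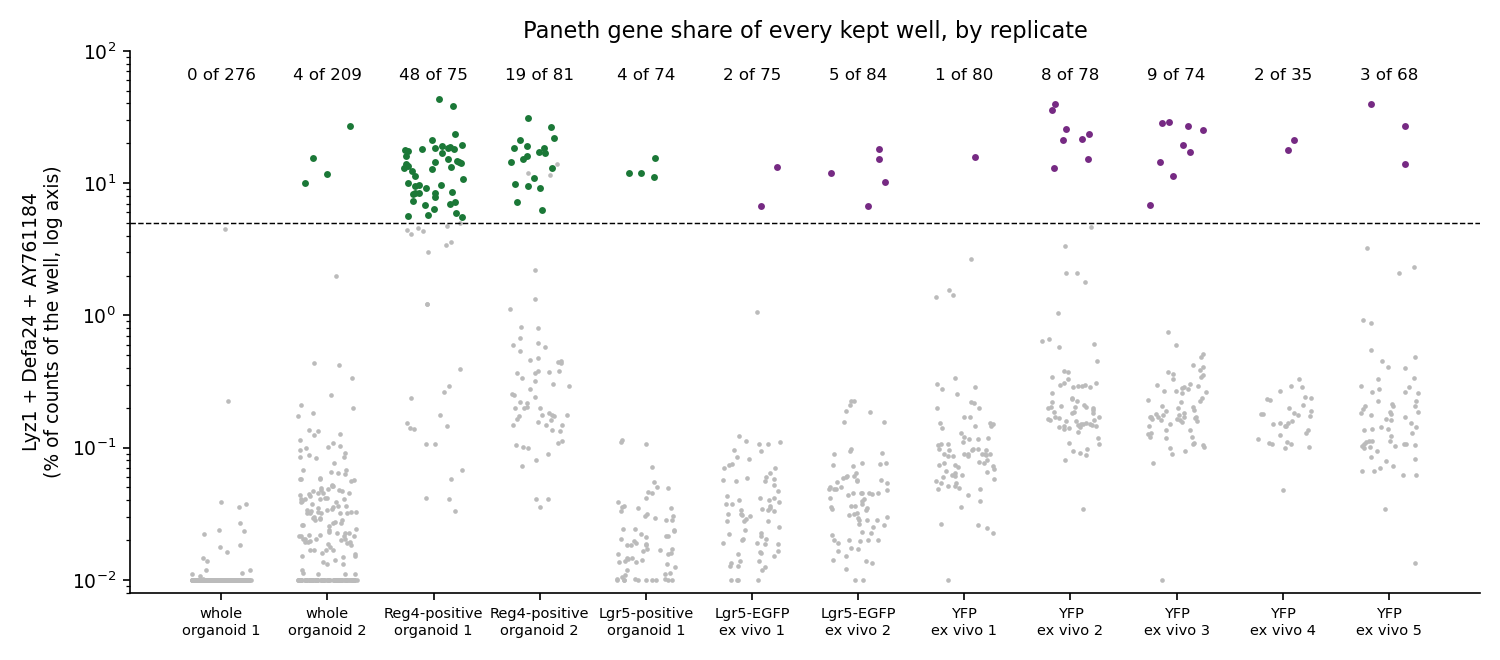
Share of Lyz1, Defa24 and AY761184 in the counts of every kept well (percent, log axis), by replicate. Each point is a well, coloured points are Paneth wells (green organoid, purple ex vivo), grey points are other wells, values under 0.01% are drawn at 0.01 and the dashed line is the 5% threshold. Most other wells lie well below the line, and Reg4-positive replicate 1, with 48 Paneth wells of 75, has the most points just under it.

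The wells nearest the threshold were mostly from Reg4-positive replicate 1. Just inside it stood wells at 5.56%, 5.61%, 5.72% and 5.96%, all from that replicate. Just outside stood wells at 4.9999%, 4.71% and 4.59% of the same replicate, at 4.62% on YFP plate 2 and at 4.48% in whole organoid replicate 1, the highest well of that replicate. A further 3 wells of Reg4-positive replicate 2, with 11.6%, 14.02% and 11.9% of Paneth genes, were left out by their granin shares of 0.572%, 0.784% and 0.607%.

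Comparisons over replicates used the 8 with at least 3 Paneth wells, 4 organoid (whole organoid replicate 2, Reg4-positive replicates 1 and 2, Lgr5-positive) and 4 ex vivo (Lgr5-EGFP plate 2, YFP plates 2, 3 and 5). Values per replicate below stand in this order. Kept wells summed to between 287001 and 2860636 counts per replicate over all 12, and Paneth wells had median counts of 5131 to 22639 in the 8. The median Paneth well held 0.895 to 1.11 times the counts of the median other well in whole organoid, Lgr5-positive and Reg4-positive replicate 1, and 1.77 to 2.41 times in the other 5. After thinning each well to 1500 counts, Paneth wells showed a median of 462 to 848 genes against 916 to 1087 in other wells, fewer in all 8 replicates. A few abundant transcripts took a large part of these wells, and levels are given as CPM, the counts of the summed Paneth wells scaled to a fixed common total. Summed Paneth wells held only 30091 counts in whole organoid replicate 2 and 41539 in the Lgr5-positive organoid, so low CPM values there stand for few counts. CEL-seq counts the 3′ end of each transcript, so CPM are not divided by gene length.

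The 3 genes of the rule differed in how steady they were. Lyz1, lysozyme C of Paneth cells, stood at 37121, 28571, 31739 and 19042 CPM in organoid and 28253, 44985, 39231 and 57415 CPM in ex vivo Paneth wells. Defa24 stood at 105081, 81195, 99353 and 95212 CPM in organoid and 56444, 73787, 74291 and 73361 CPM in ex vivo Paneth wells, each organoid value above each ex vivo value. The file's values end at 1597.01 counts per gene and well, the limit of the molecular barcodes. Defa24 was at this limit or 1 barcode short of it in 14 of 30 ex vivo wells and 7 of 75 organoid wells, and the ex vivo wells were deeper (median 17426.5 counts against 5884). Among Paneth wells under 10000 counts the order was the opposite, with a median Defa24 share of 16.4% in 5 ex vivo wells and 9.91% in 55 organoid wells, against 6.93% and 9.72% in all wells. The organoid Defa24 levels are therefore not read as higher. AY761184 went the other way, with 3091, 12767, 19137 and 15768 CPM in organoid and 45133, 81236, 64043 and 65762 CPM in ex vivo Paneth wells. It took a median of 1.00% of counts per organoid well and 6.54% per ex vivo well, although 15 ex vivo and 0 organoid wells were at the limit or 1 barcode short of it. In the wells under 10000 counts the medians were 0.864% and 12.0%. Since the rule adds the 3 genes, a low level of 1 of them in a Paneth well is offset by the others, and no test is given.

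Itln1, an intelectin that binds microbial sugars, was at 47223, 40902, 42940.4 and 28407 CPM in organoid and 22376, 25912, 24040.3 and 39319 CPM in ex vivo Paneth wells, and Mmp7 was at 4619, 1478, 2196 and 2479.6 CPM in organoid and 2609.5, 1919, 2046 and 1996 CPM in ex vivo Paneth wells. Both overlapped between the 2 sources and did not pass the test there (log2 fold change 0.36 ± 0.35 SE and 0.19 ± 0.38 SE, with adjusted p by edgeR of 0.703 and 0.858). The 2 mucosal pentraxins, secreted relatives of C-reactive protein, varied more. Mptx1 was at 99.7, 4841, 5519.9 and 2528 CPM in organoid and 267, 1371, 2093 and 1574 CPM in ex vivo Paneth wells, lowest in whole organoid replicate 2 and next lowest on Lgr5-EGFP plate 2. Mptx2 was at 498, 4645, 5053 and 529.6 CPM in organoid and 6113, 3588, 4912 and 6217 CPM in ex vivo Paneth wells. Mptx1 was high in the other wells of Reg4-positive replicate 1 too, at 4217 CPM, so it separated Paneth from other wells there by a log2 ratio of 0.20, and Itln1 reached 8692 CPM in those wells.

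**Figure D2:**
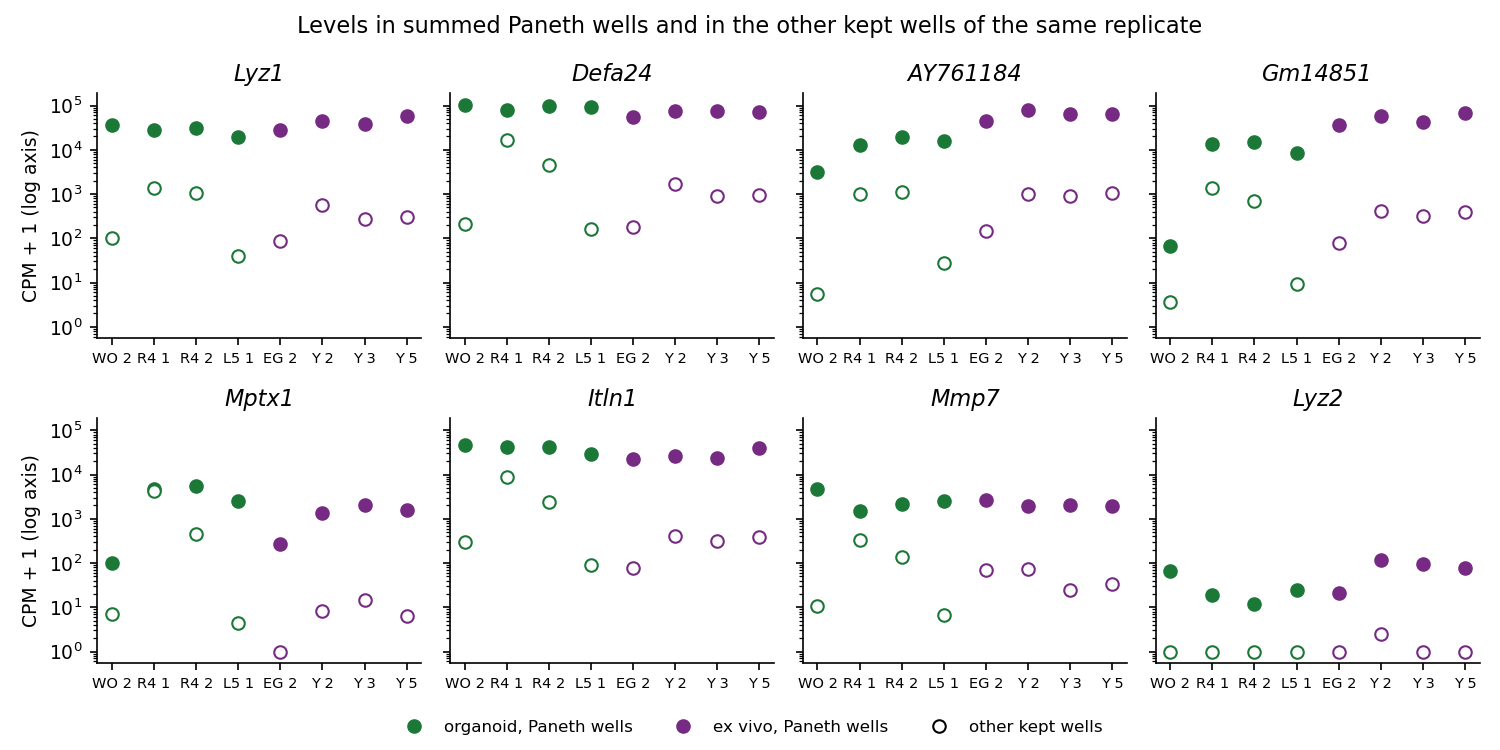
Levels of 8 Paneth genes (CPM plus 1, log axis) in summed Paneth wells (filled) and other kept wells (open) of the 8 replicates: WO 2 whole organoid replicate 2, R4 1 and R4 2 Reg4-positive replicates, L5 1 Lgr5-positive organoid, EG 2 Lgr5-EGFP plate 2, Y 2, Y 3 and Y 5 YFP plates. Each point is 1 replicate. Filled points lie above open ones throughout, AY761184 and Gm14851 are lower in organoid than in ex vivo Paneth wells, and Mptx1 is nearly level between the well classes in R4 1.

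Lyz2, the lysozyme gene known from macrophages, was far below Lyz1 in every replicate. It stood at 66.5, 18.1, 10.7 and 24.1 CPM in organoid and 20.5, 117, 92.7 and 76.8 CPM in ex vivo Paneth wells, and at 0 to 1.47 CPM in the other wells. The 250 bases upstream of both starts, from RefSeq on GRCm38.p6, are shown because these neighbouring genes differ so much in level. Lyz1 is read at chr10:117292869-117293118 and Lyz2 at chr10:117282273-117282522, both on the minus strand and 5′ to 3′, with capitals for bases that differ or have no counterpart.
Lyz1: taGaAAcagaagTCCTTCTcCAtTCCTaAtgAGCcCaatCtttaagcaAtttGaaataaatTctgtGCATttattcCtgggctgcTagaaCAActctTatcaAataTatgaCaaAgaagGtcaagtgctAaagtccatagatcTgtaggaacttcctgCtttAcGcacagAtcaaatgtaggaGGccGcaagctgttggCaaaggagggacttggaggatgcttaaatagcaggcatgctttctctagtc
Lyz2: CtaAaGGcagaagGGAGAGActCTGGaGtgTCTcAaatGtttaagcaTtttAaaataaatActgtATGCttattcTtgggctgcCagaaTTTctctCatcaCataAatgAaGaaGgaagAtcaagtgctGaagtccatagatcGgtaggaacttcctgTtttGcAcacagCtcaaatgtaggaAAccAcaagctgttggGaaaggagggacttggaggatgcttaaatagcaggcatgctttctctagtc

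These 2 stretches matched at 200 of 248 aligned bases (80.6%), and 50 bases of each are in capitals, none of them among the 50 bases next to the start. TCAAAG, a core of TCF sites at Wnt target genes, and TATAAA, searched on both strands, had 0 matches in either. They occurred in 13.8% and 12.4% of 32851 such upstream sequences. This says only that those letters are not in these windows.

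Beside other kept wells of the same replicate, Paneth wells held far more of the antimicrobial products. Among 9442 genes with at least 10 CPM on either side, 95 (1.01%) were higher in Paneth wells in all 8 replicates and 2257 (23.9%) were lower in all 8, with a median log2 ratio over all genes of −0.68. The rule made this contrast, so it has no test. Of 24 further alpha-defensins measured, 18 were higher in all 8 replicates and 0 lower (median log2 ratio 5.51). Of 22 other Paneth products, 14 were higher and 2 lower (median 3.64). The 15 genes with the highest ratios were 11 defensin or defensin-like entries and Gm21002, with Ang4 (angiogenin 4, a microbicidal ribonuclease), Clps (colipase) and Itln1.

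Ang4 was at 8076, 1779, 4634 and 674 CPM in organoid and 7099, 6392, 8634 and 11590.4 CPM in ex vivo Paneth wells, against 0 to 227 CPM in other wells. Clps was at 5616, 2459, 4392 and 7078 CPM in organoid and 2414, 4175, 3946 and 5315 CPM in ex vivo Paneth wells. The phospholipase Pla2g2a, which attacks bacterial membranes, was at 2227, 512, 435 and 1179.6 CPM in organoid and 2558, 666, 641 and 537 CPM in ex vivo Paneth wells, against 3.47 to 85.5 CPM in other wells. All 3 overlapped between organoid and ex vivo. The products that were lower in all 8 replicates were Pigr, the receptor that carries IgA into the lumen, and Dmbt1, a secreted scavenger receptor.

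On the list of signals to the stem cell, 2 of 5 measured genes were higher in Paneth wells in all 8 replicates and 0 were lower. They were Wnt3 and Cd24a, and Cd24a is a surface marker and not itself a signal. Wnt3, the Wnt ligand of Paneth cells, stood at 133, 51.2, 59.1 and 217 CPM in organoid and 92.5, 102, 124 and 76.8 CPM in ex vivo Paneth wells, against 1.47 to 19.1 CPM in other wells (mean log2 ratio 2.66). Cd24a, a surface glycoprotein used to sort Paneth cells, stood at 1429, 1403, 1563 and 1733 CPM in organoid and 1767, 877, 981 and 1151 CPM in ex vivo Paneth wells. The growth factor Egf was near the floor, at 0, 15.1, 0 and 0 CPM in organoid and 10.3, 7.83, 15.4 and 19.2 CPM in ex vivo Paneth wells. The Notch ligand Dll4 stood at 0, 15.1, 21.5 and 144 CPM in organoid and 20.5, 15.7, 7.72 and 38.4 CPM in ex vivo Paneth wells and Dll1 at 0, 178, 102 and 217 CPM in organoid and 30.8, 15.7, 61.8 and 19.2 CPM in ex vivo Paneth wells, and neither kept 1 direction against the other wells.

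Of 15 secretory transcription factors, 3 were higher in Paneth wells in all 8 replicates, Atoh1, Bhlha15 (Mist1, of professional secretory cells) and Klf4, and 0 were lower. Bhlha15 was at 731, 172, 123 and 313 CPM in organoid and 113, 62.7, 84.9 and 38.4 CPM in ex vivo Paneth wells, with 3.60 to 85.8 CPM in other wells. Sox9, needed for Paneth cells to form, was at 166, 406, 285 and 457 CPM in organoid and 205, 188, 169.9 and 95.9 CPM in ex vivo Paneth wells, against 93.2 to 286 CPM in other wells. Of 11 Wnt receptor and Eph positioning genes, 4 were lower in all 8, Fzd5, Ephb2, Axin2 and Ctnnb1, and 0 were higher (median −0.74). Genes of the cell cycle were lower in all 8 replicates for 19 of 24, and those of enterocytes for 11 of 26, with 0 higher in either list and medians of −2.10 in both. Of 15 stem cell genes 3 were lower and 0 higher (median −0.57). The medians of the Wnt receptor and stem cell lists are near that over all genes (−0.68), of which 23.9% were lower in all 8, so neither list stands out here.

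Markers of other cells in the Paneth wells were mostly those of goblet cells. Of 19 goblet genes 5 were higher than in other wells in all 8 replicates and 0 lower (median 1.36), with a summed level of 26031 to 58390 CPM in organoid and 8084 to 20599 CPM in ex vivo Paneth wells. Enteroendocrine genes, apart from the granins of the rule, were lower in all 8 for 2 of 22 and higher for 0. Stromal genes summed to 0 to 99.7 CPM and immune genes to 10.7 to 133 CPM over the 8 replicates. Lyz2, described above, is on the immune list and made up the whole immune sum in whole organoid replicate 2, Reg4-positive replicate 2 and YFP plate 5. In Reg4-positive replicate 2 the granin Chgb, itself part of the rule, was at 1031 CPM in Paneth wells.

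A set of 4 ex vivo Paneth wells stood apart from the other 26. They were both Paneth wells of Lgr5-EGFP plate 1, 1 well of Lgr5-EGFP plate 2 and 1 of YFP plate 3. Spink4 made up 3.13% to 3.98% of their counts against 0.154% to 1.22% in the other 26, and Reg4 0.611% to 2.05% against 0.0212% to 0.439%. Itln1 made up 0.175% to 0.847% against 1.31% to 5.55%, and Ang4 0.00750% to 0.0205% against 0.109% to 2.27%. They are the only ex vivo Paneth wells that passed the goblet threshold used below, and the description was made after the values were seen. Lgr5-EGFP plate 1, with 2 Paneth wells, is in none of the comparisons over replicates. The MHC class II gene H2-Aa reached 1104 CPM in its 2 wells.

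The alpha-defensins took 15.8% to 23.4% of the counts of organoid and 27.5% to 31.4% of the counts of ex vivo Paneth wells, and their balance differed. Defa24 made up 41.8% to 51.5% of defensin counts in the 4 organoid replicates and 20.5% to 26.4% in the 4 ex vivo ones. AY761184 made up 1.34% to 8.19% and 16.4% to 25.9%, and Gm14851 made up 0.0288% to 8.47% and 13.3% to 22%. Gm15284 made up 18.6% to 25.1% and 14.7% to 17.8%. These 4 pairs of ranges do not overlap, and 2 of the 4 genes are in the rule, so no test is given for them. Values at the barcode limit touch this balance, since 17 of 30 ex vivo and 7 of 75 organoid wells had Defa24 or AY761184 at it or 1 barcode short of it. In wells under 10000 counts, a limit chosen after the values were seen, Defa24 made up a median of 61.6% of defensin counts in 55 organoid wells (31.5% to 92.7%) and 33.1% in 5 ex vivo wells (27.7% to 40.7%).

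Single replicates stood out in the smaller defensins. Defa17, the near-copy of Defa24 printed above, was at 47389.6, 6951, 14315 and 19596 CPM in organoid and 7890.3, 19888, 20989.9 and 11571 CPM in ex vivo Paneth wells, and in whole organoid replicate 2 it made up 20.5% of defensin counts. Defa20 was at 1329, 1987, 4457 and 7222 CPM in organoid and 25407, 1958, 1019 and 134 CPM in ex vivo Paneth wells, highest on Lgr5-EGFP plate 2. Of 19 alpha-defensins tested between organoid and ex vivo, 0 passed with edgeR or DESeq2 and 3 had a positive fold change (median −0.53). At an unadjusted p under 0.05 edgeR counted 6 of them. Between the Reg4-positive and the YFP replicates alone those that passed, all as lower, included Gm14851 and Gm15292. Without the Lgr5-positive organoid 2 passed and without whole organoid replicate 2 it was 1, all lower, and with no filter 5 passed, 3 of them lower. Without replication over animals, and with the shared windows given above, these balances describe the libraries at hand.

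Gm14851 was high in about as many single wells as it was low in. It held at least 1% of counts in 55 of 105 Paneth wells, had no count in 26, and 3 wells lay between 0.2% and 1%. In organoids 29 of 75 wells held at least 1%, split as 0 of 4 in whole organoid replicate 2, 16 of 48 in Reg4-positive replicate 1, 12 of 19 in replicate 2, and 1 of 4 among Lgr5-positive organoid cells. Ex vivo, 26 of 30 wells did, split as 4 of 5 on Lgr5-EGFP plate 2, 8 of 8, 8 of 9 and 3 of 3 on YFP plates 2, 3 and 5, 1 of 1 and 2 of 2 on YFP plates 1 and 4, and 0 of 2 on Lgr5-EGFP plate 1. The share of such wells per replicate was 30.4% ± 26.0 (SD, n = 4) in organoid and 92.2% ± 9.69 (SD, n = 4) ex vivo, with no overlap. The difference of −61.8 percentage points gave p = 0.0286 in a two-sided exact permutation test, the smallest that 4 against 4 allows. The test was chosen after the values had been seen. Gm14851 matches AY761184, a gene of the rule, at 96.9% of coding bases and shares 50-base windows with it. Its counts may therefore not be independent of the selection of the wells.

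Summed over wells, Gm14851 was at 66.5, 13339, 15303 and 8281 CPM in organoid and 36482, 58003, 43369.8 and 67201 CPM in ex vivo Paneth wells. Every organoid value lay below every ex vivo value, but the fitted difference did not pass (log2 fold change -2.62 ± 0.81 SE, adjusted p = 0.142 by edgeR). This call depended on the replicates and on the filter. With all 8 replicates and no filter on low counts Gm14851 passed with edgeR. Without whole organoid replicate 2 the log2 fold change was −2.22 (edgeR adjusted p = 0.0179). Between the Reg4-positive and the YFP replicates alone it was −2.14 (edgeR adjusted p = 0.0111). Gm14851 was low, at 2.63 to 1349 CPM, in other wells. Its likeness to AY761184 of the rule limits these fits too.

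Within the Reg4-positive sort Gm14851 was high in wells that were also high in Gm15284. In replicate 1 the median Gm15284 share was 8.02% in 16 wells with at least 1% Gm14851 and 0.150% in 29 wells with less than 0.2%. The medians of Tff3 were 0.506% and 1.09%, those of Spink4 0.433% and 1.04%, and those of Mptx1 0.302% and 0.768%. In replicate 2, with 12 and 7 wells, the median Gm15284 share was 7.48% and 3.90%, and that of Mptx1 0.364% and 0.865%. These classes were made after the values were seen and are a description. Gm14851 also shares 50-base windows with Gm15284 (Defa30 in the annotation), so the counts of the pair may not be independent.

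Goblet genes split the same wells in another way. The mucin Muc2, the mucus proteins Fcgbp, Zg16, Clca1 and Clca3 and the trefoil factor Tff3 were summed, and a Paneth well was counted as carrying goblet genes at 0.5% of counts or more. This held for 70 of 105 wells, 66 of 75 organoid and 4 of 30 ex vivo. The shares per replicate were 100%, 85.4%, 89.5% and 100% in organoid and 20.0%, 0%, 11.1% and 0% ex vivo, without overlap. Their means were 93.7% ± 7.44 (SD, n = 4) and 7.78% ± 9.69 (SD, n = 4), a difference of 85.9 percentage points (two-sided exact permutation test, p = 0.0286, the smallest possible). No well lay between 0.438% and 0.569%, and 5 lay between 0.4% and 0.6%. The median goblet share was 1.21% (0.222% to 5.06%) in organoid and 0.266% (0.108% to 3.19%) in ex vivo Paneth wells. This test too was chosen after the values had been seen. The sum was largely Tff3 in organoid wells, at a median of 0.808% of counts against 0.127% ex vivo. For Muc2 the medians were 0.222% and 0.0986%. With each replicate left out in turn, the log2 fold change of organoid against ex vivo was 2.14 to 3.03 for Tff3. It was 1.17 to 5.04 for Fcgbp and -0.24 to 0.52 for Muc2. The split is therefore read mainly as a difference in Tff3, and is not independent of the Tff3 call below.

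The 2 splits met in the ex vivo wells. All 26 ex vivo wells with at least 1% Gm14851 were below the goblet threshold, and all 4 without, with Gm14851 at 0.0308% or less, were above it. In organoids 24 wells passed both thresholds, 5 had Gm14851 alone, 42 had goblet genes alone and 4 had neither.

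**Figure D3:**
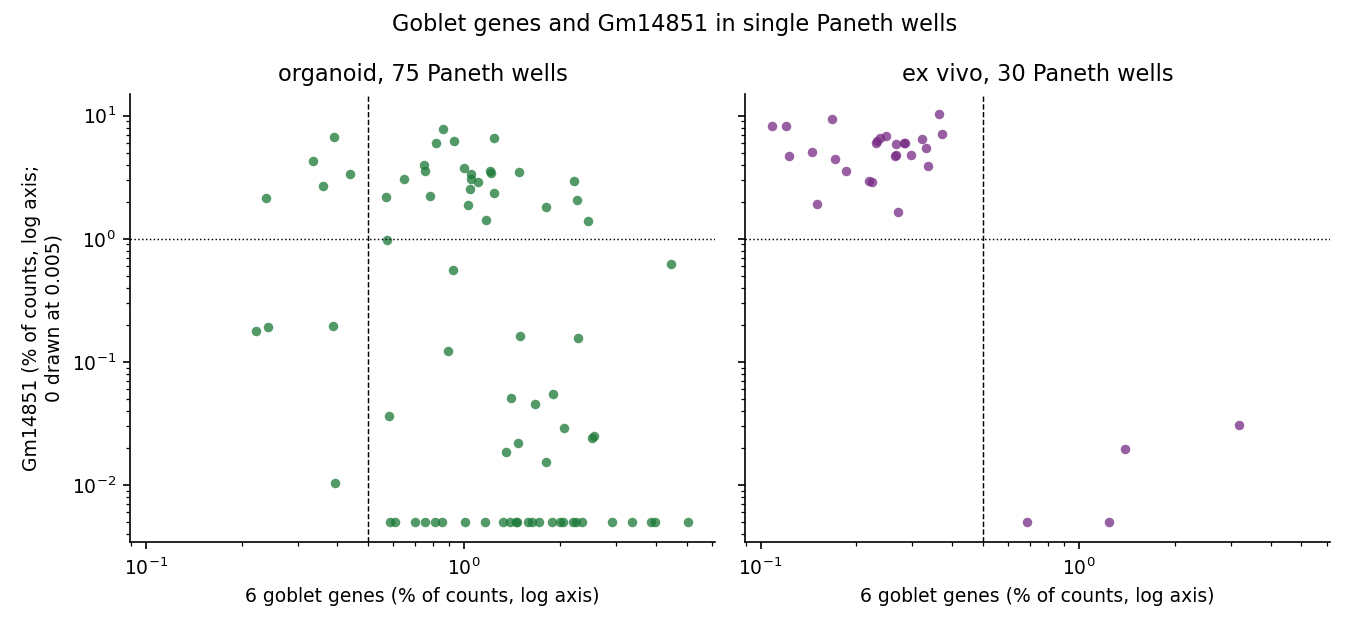
Gm14851 against the sum of 6 goblet genes (percent of the counts of a well, log axes) in 75 organoid and 30 ex vivo Paneth wells. Each point is a well, the dashed line is the 0.5% goblet threshold, the dotted line is 1% Gm14851 and wells without Gm14851 are drawn at 0.005. The 26 ex vivo wells high in Gm14851 all lie left of the dashed line, whereas 24 organoid wells lie in the upper right.

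Organoid and ex vivo Paneth wells differed in a host defence lectin, a trefoil factor and enzymes of glycolysis, among others. With edgeR 15 of 1299 genes tested passed at an adjusted p under 0.05 (1.15%), 7 higher (0.539%) and 8 lower (0.616%) in organoid wells, with a median log2 fold change over all genes of 0.01. Between the Reg4-positive and the YFP replicates alone, 70 of 1733 genes passed (4.04%), 31 higher (1.79%) and 39 lower (2.25%) in organoid wells, and 13 of the 15 were among them. Apart from the test, organoid values lay wholly above ex vivo values for 80 genes (6.16%) and wholly below for 41 (3.16%).

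Tff3, which goblet cells secrete with mucus, was at 18643, 8095, 10363 and 9196 CPM in organoid and 668, 1112, 3684 and 2092 CPM in ex vivo Paneth wells. The groups did not overlap, and the 5.53-fold difference passed (log2 fold change 2.47 ± 0.51 SE, adjusted p = 0.0274 by edgeR). Kit, the receptor tyrosine kinase reported on secretory cells beside the stem cells, was at 233, 307, 113 and 361 CPM in organoid and 71.9, 31.3, 38.6 and 19.2 CPM in ex vivo Paneth wells (5.19-fold higher in organoid, log2 fold change 2.37 ± 0.45 SE, adjusted p = 0.0149 by edgeR). The glycolytic enzymes Pkm and Aldoa were 3.27-fold and 2.79-fold higher. Pkm stood at 465, 415, 333 and 361 CPM in organoid and 144, 109.7, 92.7 and 76.8 CPM in ex vivo Paneth wells (log2 fold change 1.71 ± 0.30 SE, adjusted p = 0.0149 by edgeR). Aldoa was at 397 ± 52.7 CPM in organoid against 124 ± 54.1 CPM in ex vivo Paneth wells (SD, n = 4 each). The desaturase Scd2, the nucleoside transporter Slc29a1 and Lrrc26, a partner of secretory cell potassium channels, were also higher, with log2 fold changes of 2.71, 1.80 and 1.80.

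The 8 genes that were lower in organoid Paneth wells were led by Reg3g, a bactericidal lectin that microbes and inflammation are known to raise. Reg3g was at 33.2, 78.3, 26.8 and 24.1 CPM in organoid and 5342, 289.8, 409 and 537 CPM in ex vivo Paneth wells, 36.2-fold lower in organoid wells (log2 fold change -5.18 ± 0.92 SE, adjusted p = 0.0149 by edgeR). Lgr5-EGFP plate 2 was far above the other ex vivo values, and without it the log2 fold change was −3.17 (edgeR adjusted p = 0.00719). Reg3g was also counted in the other wells, at 154 CPM on average in organoid and 1458 CPM in ex vivo replicates. Dmbt1 stood at 66.5, 12.0, 69.8 and 0 CPM in organoid and 483, 227, 216 and 134 CPM in ex vivo Paneth wells (log2 fold change -3.05 ± 0.57 SE, adjusted p = 0.0149 by edgeR), with 199 to 2618 CPM in the other wells. The interferon-induced Ifitm3 and Psmb10, a catalytic subunit of the immunoproteasome, were lower by 4.75-fold and 4.85-fold. Ifitm3 was at 0, 72.2, 113 and 72.2 CPM in organoid and 154, 439, 463 and 288 CPM in ex vivo Paneth wells, and Psmb10 at 99.7, 39.1, 16.1 and 24.1 CPM in organoid and 195, 133, 124 and 173 CPM in ex vivo Paneth wells. For Reg3g, Dmbt1, Ifitm3 and Psmb10 the values of whole organoid replicate 2 and the Lgr5-positive organoid rest on few counts. Clca4, AI747448 and the mitochondrial proteins Cycs and Ndufs4 completed the list, with log2 fold changes of -2.41, -3.16, -1.59 and -1.87.

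**Figure D4:**
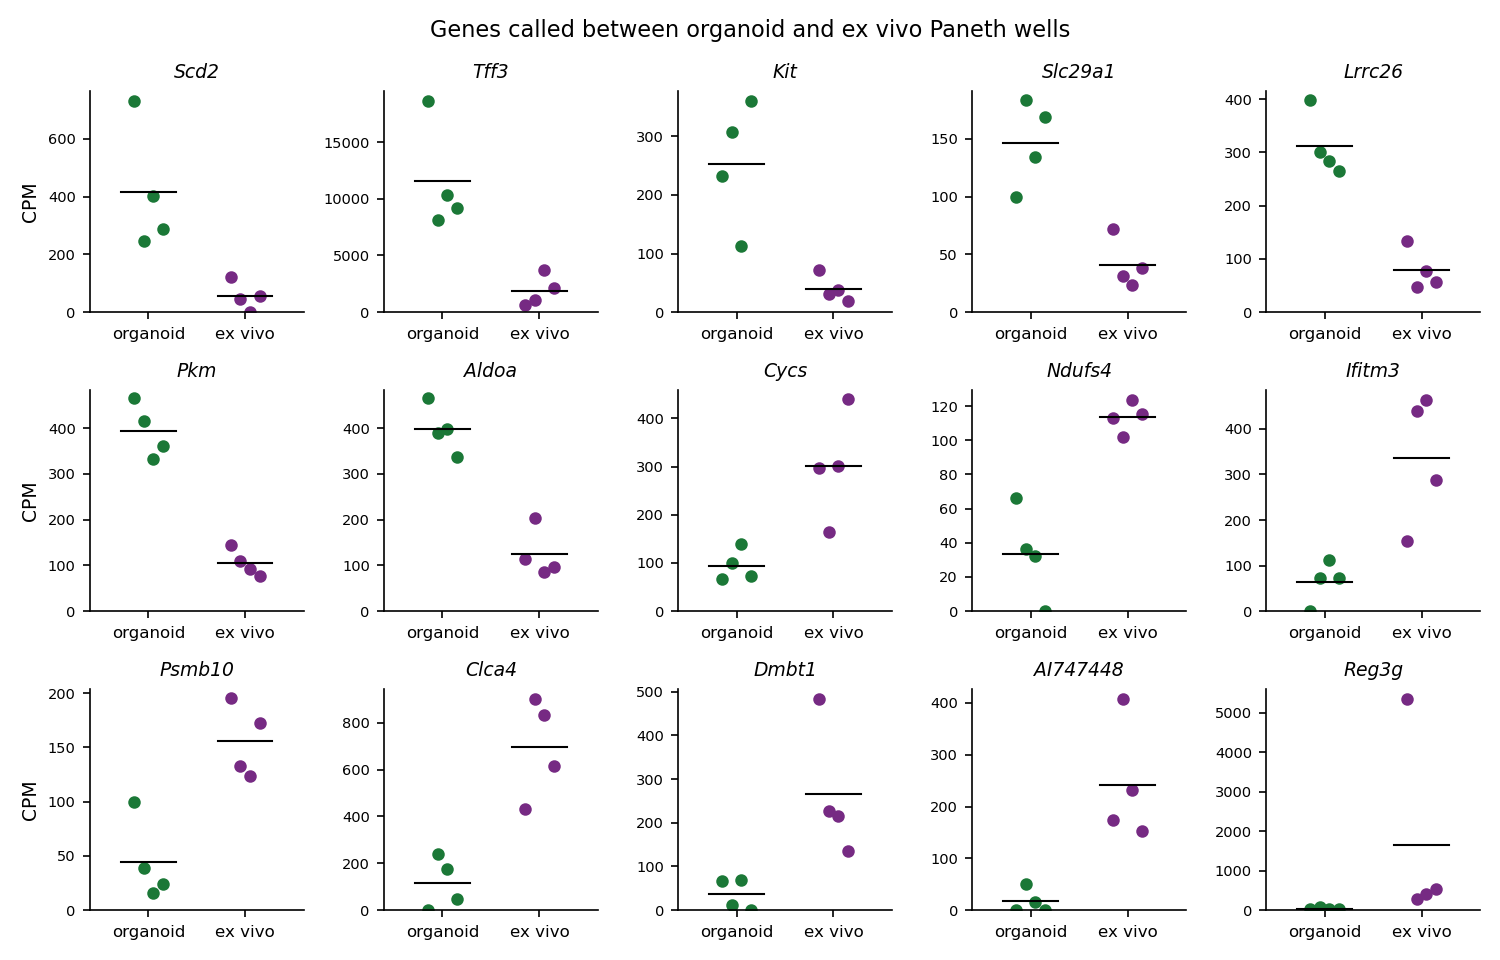
Levels (CPM) of the 15 genes that passed between organoid (green) and ex vivo (purple) Paneth wells. Each point is the sum of the Paneth wells of 1 replicate, lines are means and each panel has its own axis from 0. The 4 organoid and 4 ex vivo points do not overlap in any panel, and 1 ex vivo point sets the mean of Reg3g.

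The number of genes that passed rested on single libraries. It was 15 with all 8 replicates, 65 without Lgr5-EGFP plate 2, 25 without the Lgr5-positive organoid and 24 without whole organoid replicate 2. It fell to 1 without Reg4-positive replicate 1, 3 without Reg4-positive replicate 2, 5 without YFP plate 2 and 4 without YFP plate 3. In each of these fits every one of the 15 that was still tested kept its direction. With Paneth wells below the goblet threshold alone, organoids were left with 1 replicate, the 7 such wells of Reg4-positive replicate 1, whose spread had to be taken from the 4 ex vivo plates. In that fit 2 genes passed, neither among the 15, and the lost calls cannot be told apart from the loss of replicates.

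Of 21 chaperone and unfolded protein response genes 0 passed, yet all 21 had a positive fold change (median 0.55, against 668 of 1299 genes positive and a median of 0.01). Xbp1, the transcription factor of that response which Paneth cells need, was at 565, 385, 354 and 578 CPM in organoid and 236, 211, 239 and 192 CPM in ex vivo Paneth wells, without overlap (log2 fold change 0.90 ± 0.32 SE, adjusted p = 0.193 by edgeR). Hspa5, the main chaperone of the endoplasmic reticulum, was at 698, 488, 526 and 698 CPM in organoid and 637, 188, 247 and 269 CPM in ex vivo Paneth wells and overlapped. Of 9 secretory transcription factors 0 passed and 8 were positive (median 0.85). Of 13 goblet genes 1 passed, Tff3, and 11 were positive (median 0.97). Of 17 non-defensin Paneth products 0 passed higher and 2 lower, Reg3g and Dmbt1, with 7 positive (median −0.17). Of 4 enterocyte genes tested 0 passed and 0 were positive (median −1.16), and of 6 stem cell genes 0 passed and 1 was positive (median −0.65).

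MHC class II genes did not pass the filter on low counts over the 8 replicates. Between the Reg4-positive and the YFP replicates alone 3 were tested and 2 passed as lower in organoid wells, H2-Eb1 and Cd74 (adjusted p = 0.0241 and 0.0455 by edgeR). In the interaction with other wells, described next, 7 were tested and 0 passed, with 0 at an unadjusted p under 0.05 in edgeR. H2-Aa was at 0, 0, 0 and 0 CPM in organoid and 308, 70.5, 100.4 and 57.6 CPM in ex vivo Paneth wells, H2-Eb1 at 0, 0, 0 and 0 CPM in organoid and 205, 102, 108 and 38.4 CPM in ex vivo Paneth wells and Cd74 at 0, 0, 0 and 0 CPM in organoid and 154, 78.3, 169.9 and 0 CPM in ex vivo Paneth wells. Summed class II levels were 0 to 69.8 CPM in organoid and 230.3 to 1079 CPM in ex vivo Paneth wells, and 28.1 to 44.0 CPM and 859 to 2426 CPM in the other wells of the same replicates.

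Whether Paneth wells differed between the sources in the way other wells did was tested with an interaction term, each replicate being its own block. Of 5507 genes tested 10 passed (0.182%), 1 positive (0.0182%) and 9 negative (0.163%). A negative value means that the organoid minus ex vivo difference was lower in Paneth than in other wells. None of the 15 genes that passed between organoid and ex vivo Paneth wells was among these 10. Those 15 were thus not found to be particular to Paneth wells, by a test that recovered 30.2% of 4-fold changes on simulated data.

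The lipase Pnliprp2 was at 66.5, 1626, 736 and 2552 CPM in organoid and 1387, 1559, 1475 and 1401 CPM in ex vivo Paneth wells. Its mean was 1245 CPM in organoid and 1455 CPM in ex vivo Paneth wells, and 135 and 9.50 CPM in the other wells (interaction log2 fold change -4.50 ± 0.61 SE, adjusted p = 9.88e-05 by edgeR). Nupr1, a small stress response protein, had means of 391 CPM in organoid and 629 CPM in ex vivo Paneth wells, and 109 and 16.5 CPM in the other wells (interaction log2 fold change -3.42 ± 0.54 SE, adjusted p = 0.00109 by edgeR). Nupr1 stood at 12.7 to 195 CPM in the other wells of the organoid replicates and 7.87 to 32.4 CPM in those of the ex vivo plates, which overlap. Its Paneth values overlapped in CPM but not on the TMM scale of the fit, where organoid replicates reached 509.6 and ex vivo plates began at 611. Pnliprp2 overlapped between the Paneth wells of the 2 sources. It was at 65.0, 294, 75.3 and 107 CPM in the other wells of the 4 organoid replicates and at 4.50 to 14.7 CPM in those of the 4 ex vivo plates, without overlap. In whole organoid replicate 2 it did not separate the 4 Paneth wells from the rest.

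Zg16, a lectin of goblet granules, had a positive interaction (log2 fold change 4.91 ± 0.66 SE, adjusted p = 9.88e-05 by edgeR), which was no longer called without whole organoid replicate 2 (log2 fold change 5.59, adjusted p = 0.530). Over the 8 fits without 1 replicate it was 4.63 to 5.59. Its level was 1994, 0, 10.7 and 0 CPM in organoid and 0, 70.5, 61.8 and 57.6 CPM in ex vivo Paneth wells. Fabp1, a fatty acid binding protein, had means of 29.1 CPM in organoid and 107 CPM in ex vivo Paneth wells, and 979 and 616 CPM in the other wells. Adh1, an alcohol dehydrogenase, had 235 CPM in organoid and 378 CPM in ex vivo Paneth wells, and 1723 and 667 CPM in the other wells. The others that passed were Sepp1, Ttr, Ptprn2, Cyp2c65 and Pla2g2f, with interaction values of -2.60, -3.31, -3.52, -4.28 and -5.37. Without the Lgr5-positive organoid 3 genes passed as positive and 30 as negative, without Reg4-positive replicate 1 it was 18 and 25, and without YFP plate 2 it was 1 and 5. Of 20 alpha-defensins tested 0 passed with edgeR or DESeq2, and 9 had an unadjusted p under 0.05 with edgeR. All 20 were negative (median −1.88, against −0.07 over all genes). Without the Lgr5-positive organoid 6 of them passed, without Reg4-positive replicate 1 it was 5, and with no filter on low counts 5, each time as negative. The rule, which holds 2 alpha-defensins, also set which wells count as other. Alpha-defensins took 2.50% and 1.01% of other-well counts in Reg4-positive replicates 1 and 2. In whole organoid replicate 2 and the Lgr5-positive organoid it was 0.0348% and 0.0313%, and ex vivo 0.0779% to 0.391%. The defensin interaction values are thus not independent of the selection, and no conclusion is drawn from them.

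Paneth wells with more and with less of the goblet genes could be compared within the Reg4-positive sort. At the threshold of 0.5% only 1 replicate had 3 wells in both classes and no test was possible. At 1% of counts there were 28 wells with and 20 without in replicate 1, and 12 and 7 in replicate 2, with 5 and 2 wells between 0.9% and 1.1%. Median counts per well were 4618 with and 7230.0 without in replicate 1, and 8715.5 and 9691 in replicate 2, so the wells with more goblet genes were shallower in both. The fit had the replicate as a block and 1 residual degree of freedom. Of 1855 genes tested, 73 passed (3.94%), 36 higher (1.94%) and 37 lower (1.99%) in wells with more goblet genes, and without the block 0 passed, with 98 at an unadjusted p under 0.05. DESeq2 called 5 higher and 2 lower. The 6 genes of the split are left out of these counts, and the values are TMM-scaled CPM.

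Of 16 non-defensin Paneth products tested, 7 rose in the wells with more goblet genes, 0 fell and 9 did not pass (median log2 fold change 0.45, over all genes 0.00). Ang4 was at 3121 against 555 CPM in replicate 1 and 6518 against 2591 CPM in replicate 2 (log2 fold change 1.89 ± 0.17 SE). Mptx1 was at 7452 against 2308 CPM in replicate 1 and 8274 against 2317 CPM in replicate 2 (log2 fold change 1.76 ± 0.16 SE). Mmp7 was at 1859.7 against 1024 CPM in replicate 1 and 3168 against 1108 CPM in replicate 2 (log2 fold change 1.16 ± 0.18 SE), and Itln1 at 52299 against 27701 CPM in replicate 1 and 54579.7 against 32789 CPM in replicate 2 (log2 fold change 0.83 ± 0.14 SE). The edgeR adjusted p of these 4 were 1.7e-25, 1.7e-25, 9.23e-09 and 1.69e-07. With 1 residual degree of freedom they rest on a spread pooled over genes, and they do not measure the spread between cultures or animals. Of goblet genes outside the split 5 of 11 rose and 0 fell. Both lists hold Spink4, which is counted in each. Spink4, a protease inhibitor of goblet and Paneth granules, was at 15398 against 3163 CPM in replicate 1 and 25500.4 against 9342 CPM in replicate 2 (log2 fold change 1.87 ± 0.15 SE), and Guca2a, the gut peptide guanylin, at 1242 against 525 CPM in replicate 1 and 1469.7 against 187 CPM in replicate 2 (log2 fold change 1.80 ± 0.21 SE). Reg4, the gene of the sort, was at 1300.5 against 499.7 CPM in replicate 1 and 1985 against 1180.3 CPM in replicate 2 (log2 fold change 1.07 ± 0.19 SE).

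Alpha-defensins moved in both directions in these wells. Of 21 tested 2 rose and 6 fell (median −0.48). Gm14851 was at 8109 against 15909 CPM in replicate 1 and 14354 against 19374 CPM in replicate 2 (log2 fold change -0.70 ± 0.14 SE). Defa22 was at 520.2 against 1589 CPM in replicate 1 and 1737 against 4721 CPM in replicate 2 (log2 fold change -1.52 ± 0.18 SE) and Defa5 at 1170.4 against 1919 CPM in replicate 1 and 5354 against 9486 CPM in replicate 2 (log2 fold change -0.77 ± 0.16 SE). Defa17 rose, at 8778 against 4792 CPM in replicate 1 and 17493 against 11990.1 CPM in replicate 2 (log2 fold change 0.71 ± 0.14 SE), and so did Defa26 (log2 fold change 0.62 ± 0.17 SE). Gm21002, which lies outside the list, fell (log2 fold change -1.81 ± 0.17 SE).

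Of 24 chaperone and unfolded protein response genes 4 rose, 0 fell and 20 did not pass, with 21 positive. Those that rose were Hyou1, Hspa5, Pdia6 and Agr2, and Agr2 also counts among the goblet genes. Hspa5 was at 566 against 375 CPM in replicate 1 and 725 against 317 CPM in replicate 2 (log2 fold change 0.84 ± 0.26 SE). Spdef, a transcription factor of goblet and Paneth maturation, was at 429 against 169.9 CPM in replicate 1 and 296 against 158 CPM in replicate 2 (log2 fold change 1.18 ± 0.33 SE). Of 6 cell cycle genes 0 rose and 4 fell, and of 4 stem cell genes 0 rose and 3 fell. Mcm6, a subunit of the replicative helicase, was at 0 against 105 CPM in replicate 1 and 57.3 against 158 CPM in replicate 2 (log2 fold change -2.51 ± 0.67 SE), and Smoc2, a stem cell marker, at 97.5 against 279.8 CPM in replicate 1 and 143 against 230.3 CPM in replicate 2 (log2 fold change -1.17 ± 0.36 SE). Cdca7 fell from 239.8 and 288 CPM without to 45.5 and 47.7 CPM with goblet genes. The part of depth in these differences was not tested beyond thinning every well to 1500 counts, after which 222 genes could be tested and 5 rose and 6 fell.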

How the data were processed

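Single-cell CEL-seq values were used as the authors deposited them: estimated counts of transcripts per gene and well, corrected for repeated 4-base molecular barcodes. Per the submitters' processing notes, BWA 0.6.2-r126 and mm10 (GRCm38) were used, while counter and annotation were not given in the sources used here. In 17 Paneth wells 25 values, of Defa24 and AY761184 10 each, were at the upper limit of 1597.01. The 192 columns of 2 tables matched no labelled sample and were not used, and the Lgr5-positive organoid table was matched by its name. The design text calls wells 49 to 96 of 1 plate unrelated, and YFP plate 4 came with 48 wells. Values were rounded (largest move 0.495) and summed over plates per replicate, and no doublet caller was run. Tests used edgeR 4.0.16 (quasi-likelihood, TMM, filterByExpr, Benjamini-Hochberg 0.05) in R 4.3.3, with DESeq2 1.42.0 as an alternative. Standard errors derive from the F statistic.

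The Paneth wells and gene lists were chosen with earlier results of these data known. Named genes were the markers, then up to 10 called genes each way with the largest change, at least 50 CPM and no overlap, the 15 highest Paneth to other ratios (at least 200 CPM), and up to 4 abundant members of each list. Part of them is described, and members of lists, Lyz2, Egf, H2-Aa, H2-Eb1, Cd74 and 4 ex vivo wells were singled out after their values were seen. The goblet comparison was planned at 0.5% and run at 1%. On simulated data, the organoid against ex vivo test recovered 22.4% of 2-fold and 94.7% of 4-fold changes among 1236 genes, with 3 false of 91 calls. For the interaction it was 1.05% and 30.2% of 5801 genes, and for the goblet split 45.3% and 91.5% of 1909.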

Additional observations from a re-analysis of the deposited data

Results flagged for a closer look

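Among 57 gene and source groups of 4 replicates, 4 had a highest or lowest value far from the other 3 by Dixon's test at the 95% level. Chance alone flags about 1 group in 20, so this is near what chance gives. Defa24 in ex vivo Paneth wells was lowest on Lgr5-EGFP plate 2, at 56444 CPM. As Defa24 is a gene of the rule, its flag is a description and is not read as a test. It was also at the barcode limit or 1 barcode short of it in 14 of 30 ex vivo wells. Reg3g was highest there among ex vivo plates, at 5342 CPM, and highest in Reg4-positive replicate 1 among organoid replicates, at 78.3 CPM. Fcgbp was highest on YFP plate 3, at 1321 CPM. The Lgr5-EGFP plate thus gave 2 of the 4, and the comparisons without it are given with the processing.

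For 10 genes the difference between organoid and ex vivo was itself different in Paneth and in other wells (edgeR interaction test). On the log2 scale it was 4.91 for Zg16, −2.20 for Adh1, −2.60 for Sepp1, −3.31 for Ttr, −3.42 for Nupr1 and −3.52 for Ptprn2. It was −3.79 for Fabp1, −4.28 for Cyp2c65, −4.50 for Pnliprp2 and −5.37 for Pla2g2f.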

How the results depend on the processing

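With each replicate left out in turn, the organoid minus ex vivo share of Paneth wells with goblet genes was 83.4 to 90.02 percentage points and that with Gm14851 −72.8 to −51.7, each at exact permutation p = 0.0571, the smallest that 3 against 4 allows. At a 0.1% cut the Gm14851 difference was −54.0 (exact permutation p = 0.0571). Genes called higher and lower between organoid and ex vivo were 28 and 30 of 1000 at a 10% threshold for Paneth genes, 67 and 39 with no filter, and 31 and 39 for Reg4-positive against YFP. With at least 5 wells per replicate 2 and 10 of 1883 were called, with wells thinned to 1500 counts 1 and 0 of 106, and without goblet wells, with 1 organoid replicate left, 0 and 2 of 1881. With YFP plates of 1 or more Paneth wells and no Lgr5-EGFP plate they were 48 and 36 of 525. Leaving out replicates gave 0 to 36 higher and 1 to 29 lower. Interaction calls were 11 higher and 29 lower with no filter, and 1 to 18 and 5 to 30 without single replicates. For the 1% goblet split they were 0 and 0 with no replicate block, 5 and 2 with DESeq2, and 5 and 6 of 222 after thinning.

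Some genes that did not pass changed sign. Mmp7 was at −0.26 for Reg4-positive against YFP, −0.32 with at least 5 wells, −0.31 after thinning and −1.48 without goblet wells. Without single replicates it ranged from −0.18 (without whole organoid replicate 2) to 0.48. Muc2 was at −0.0373 after thinning, −0.24 without Reg4-positive replicate 1, −0.09 without YFP plate 2 and −0.07 without YFP plate 5, and reached 0.52 without Lgr5-EGFP plate 2. Without goblet wells, again with 1 organoid replicate, Itln1 was at −0.76 and Spink4 at −2.59. The median Defa24 share, 2.79 percentage points higher in organoid wells, was at −6.52 in wells under 10000 counts, where few values reach the barcode limit. The cause was not tested, apart from the smaller number of genes, wells or replicates. No paired analysis was possible because organoid and ex vivo replicates share fewer than 2 numbers. Goblet splits at 0.5% and 0.2%, and at 1% without a replicate, could not be fitted. Several alternatives were chosen after seeing the data: those of the 1% split, of the goblet and Gm14851 shares, the fit with no Lgr5-EGFP plate, and the limit of 10000 counts.

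Few Paneth wells, 3 to 5 in 4 of the 8 replicates, and saturated barcodes limit single genes, and 2-fold changes were mostly missed on simulated data. The organoid sources were 1 mouse per genotype.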
